A study of Mus musculus with 68 samples.

Results

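The response of the uterus to insulin-like growth factor 1 (IGF1) 24 h after treatment was compared between mice that lack oestrogen receptor alpha (ERα, encoded by Esr1) and their wild-type littermates. The measure is the interaction: the change from vehicle to IGF1 in Ex3aERKO mice minus the change from vehicle to IGF1 in the littermates. It rests on 10 of the 68 arrays of the series, chosen by genotype, treatment and time alone. These are 2 arrays of WT (Ex3aERKO) littermates given vehicle and 3 given IGF1, and 2 arrays of Ex3aERKO mice given vehicle and 3 given IGF1.

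All mice were ovariectomized females, so the uterus of every group lacked ovarian oestrogen. Ex3aERKO mice are Esr1-null on a C57Bl6 background, and the littermates are wild type. Vehicle was 100 ul of saline, and its tissue was taken at 24 h, as was that of the IGF1 groups used here. For IGF1 the labels name an injection of 50 ug and an implanted pump of 0.5 mg/ml that runs for 3 days, and do not say which mice had which. The 2 vehicle groups hold replicates 2 and 3, because the submitters dropped an outlier by principal component analysis, so their spread may be understated. The labels give no age. They do not state that replicates are separate mice, and a p-value then measures the spread between these samples. Whole uterus was measured, in which fewer cells of a type and less RNA per cell cannot be told apart.

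IGF1 is made in the uterine stroma, where oestrogen raises it, and it binds a receptor tyrosine kinase (Igf1r) that signals through insulin receptor substrates, PI3K and AKT. AKT holds FOXO transcription factors out of the nucleus, and uterine cells given IGF1 enter the cell cycle. IGF1 signalling has also been reported to activate ERα without its ligand, and the null mouse tests which responses need the receptor.

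The values are log2 intensities as the submitters deposited them, 1 per gene for 30142 genes, and every difference below is on that log2 scale with its standard error (SE). A gene is called, and "rose" or "fell" is written, at a Benjamini-Hochberg adjusted p under 0.05 over all genes in limma, fitted on the 25 arrays of this mouse set. The median of all genes was 0.01 in the interaction and 0.01 in each response. Esr1 checked the labels. It stood at 12.43 and 12.73 in littermates with vehicle, between 12.19 and 12.38 in littermates with IGF1, at 10.29 and 10.08 in Ex3aERKO mice with vehicle and between 9.95 and 10.28 in Ex3aERKO mice with IGF1. No Ex3aERKO array overlapped a littermate array. Where the Esr1 probe set lies relative to the deleted part of the gene is not known from the sources used here, and its remaining signal was well above the median of 3.46 of the background control probe sets. Defining markers of the uterus were present on all 10 arrays, with summed levels of the 14 smooth muscle markers between 17.59 and 19.71 and of the 13 stromal markers between 16.60 and 19.06.

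Some arrays stood apart. Replicate 2 of the Ex3aERKO IGF1 group had 11 genes at least 8-fold above the mean of its 2 partners, which had 0 each, while the 3 littermate IGF1 arrays had 12, 6 and 5 by the same measure. On that array lactoferrin (Ltf) was 13.38 against 7.24 and 7.45, and the keratinocyte envelope gene Sprr2f was 15.46 against 9.65 and 9.91. The summed level of 12 neutrophil markers was 16.03 on it and 11.11 and 11.72 on the other 2, while Esr1 was 9.95, the lowest of the 10 arrays. Such a sum is led by its most abundant members, and of the 12 markers 1 rose in Ex3aERKO, or 0 without this array. Replicate 2 of the littermate IGF1 group lay nearer to vehicle than its partners over the IGF1-responsive genes described below. It also had a Krt5 level of 13.65, a keratin of stratified epithelium, against 10.63 and 6.11. Ex3aERKO vehicle replicate 3 had the highest summed level of adipocyte markers, 13.81 against 11.48 in its partner. Littermate IGF1 replicate 1 had 511 genes at least 2-fold above the mean of its partners, against 49 to 211 on the other IGF1 arrays. Without it 582 genes were called in littermates, against 1618 with it. Gene lists were refitted without Ex3aERKO IGF1 replicate 2, littermate IGF1 replicate 2 or Ex3aERKO vehicle replicate 3. They were not refitted without littermate IGF1 replicate 1 or any other single array, so their dependence on those is not known.

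**Figure D1:**
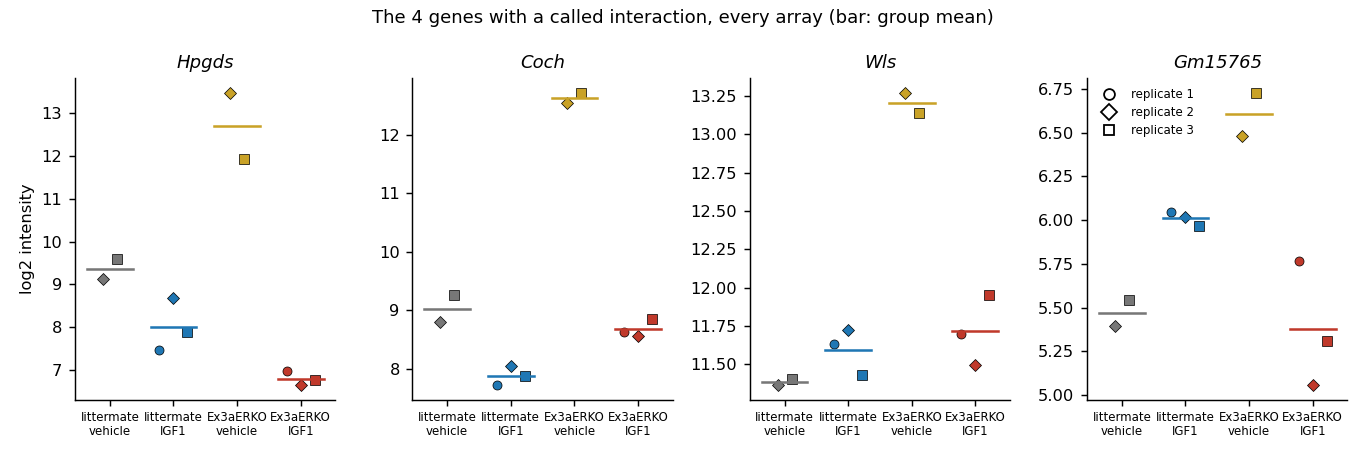
Deposited log2 intensity (y axis) of Hpgds, Coch, Wls and Gm15765, the 4 genes with a called interaction, in the 4 groups (x axis). Points are arrays, their shape is the replicate number and bars are group means; in all 4 genes the Ex3aERKO vehicle arrays lie above all other arrays.

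Few genes responded differently. The interaction was called for 4 of 30142 genes (0.0133%), all of them lower, and for 0 genes higher. At an unadjusted p under 0.05 it counted 2390 genes (7.93%), of which 1319 were higher and 1071 lower. In each of the 4 called genes the vehicle level was higher in Ex3aERKO than in littermates, and IGF1 lowered it in Ex3aERKO. The vehicle arrays enter both the vehicle difference and the interaction, so these are not independent. The number called was 1 when only the 10 arrays entered the fit, 211 when all 68 entered it, and 2 to 17 when 1 array was left out. Hpgds and Wls were called with each array left out and Coch was lost in 6 such fits and Gm15765 in 5, while on the 10 arrays alone only Coch was called (limma adjusted p = 0.181 for Hpgds there).

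Hpgds encodes hematopoietic prostaglandin D synthase, which makes prostaglandin D2. Its level was 9.12 and 9.58 in littermates with vehicle and 7.47, 8.68 and 7.89 after IGF1. In Ex3aERKO it was 13.46 and 11.93 with vehicle and 6.97, 6.65 and 6.78 after IGF1. The Ex3aERKO arrays thus moved from above all littermate arrays to below all of them. Hpgds fell by 1.34 ± 0.37 in littermates (SE, limma adjusted p = 0.0406, 2 and 3 arrays) and by 5.89 ± 0.37 in Ex3aERKO (adjusted p = 4.41e-08). The interaction was -4.56 ± 0.52, with a 95% interval from -5.65 to -3.47 (adjusted p = 0.00163). The genotype difference was 3.34 under vehicle (adjusted p = 0.000125) and -1.21 after IGF1 (adjusted p = 0.0293), a change of sign that was called at both ends for only 1 other gene, Gm15765, of the 891 with a called vehicle difference. None of 11 measured eosinophil and mast cell markers, cells that also make this enzyme, was called in either response. Of all genes 5.37% were called in littermates and 18.6% in Ex3aERKO. For 6 of the 11 markers the interval of the interaction lay within 2-fold. The summed level of these markers ran from 9.40 to 10.52. The part of these cells in the Hpgds values was not tested.

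Coch encodes cochlin, a secreted extracellular matrix protein. Its level was 8.80 and 9.26 in littermates with vehicle and 7.73, 8.06 and 7.88 after IGF1, against 12.53 and 12.71 in Ex3aERKO with vehicle and 8.63, 8.56 and 8.86 after IGF1. After IGF1 the Ex3aERKO arrays lay above the littermate IGF1 arrays and overlapped those of littermates given vehicle. Coch fell by 1.14 ± 0.30 in littermates (limma adjusted p = 0.0315) and by 3.94 ± 0.30 in Ex3aERKO. The interaction was -2.80 ± 0.42 (95% interval -3.68 to -1.92, limma adjusted p = 0.0191).

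Wls encodes the carrier that takes WNT proteins to the cell surface for secretion. It was 11.36 and 11.40 in littermates with vehicle, 11.63, 11.72 and 11.43 after IGF1, 13.27 and 13.14 in Ex3aERKO with vehicle and 11.69, 11.49 and 11.95 after IGF1. The Ex3aERKO vehicle arrays stood alone, and the Ex3aERKO IGF1 arrays overlapped the littermates. Wls changed by 0.21 ± 0.15 in littermates (limma adjusted p = 0.534) and fell by 1.49 ± 0.15 in Ex3aERKO. The interaction was -1.70 ± 0.21 (95% interval -2.15 to -1.26, limma adjusted p = 0.00283), and after IGF1 the genotypes differed by 0.12 (adjusted p = 0.708).

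Gm15765 is annotated in RefSeq as a pseudogene, so signal from a related gene cannot be told apart from its own here. It was 5.39 and 5.54 in littermates with vehicle, 6.05, 6.02 and 5.97 after IGF1, 6.48 and 6.73 in Ex3aERKO with vehicle and 5.77, 5.06 and 5.31 after IGF1. The order of the genotypes turned. Its interaction was -1.77 ± 0.26 (95% interval -2.31 to -1.23, limma adjusted p = 0.016), with a fall of 1.23 ± 0.18 in Ex3aERKO.

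Since the vehicle level of Coch and Wls differed 3.60 and 1.82 between genotypes, the bases just before their RefSeq start sites are shown (build GRCm38.p6, 5′ to 3′ on the gene's strand), with matches to GAAA followed by any 2 bases and GAAA, the core of the interferon-stimulated response element, in capitals.
Coch, chr12:51593091-51593282, plus strand: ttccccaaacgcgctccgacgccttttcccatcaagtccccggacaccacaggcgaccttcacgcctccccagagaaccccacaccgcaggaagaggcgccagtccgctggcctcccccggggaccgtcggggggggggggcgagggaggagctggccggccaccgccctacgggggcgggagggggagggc
Wls, chr3:159839400-159839649, plus strand: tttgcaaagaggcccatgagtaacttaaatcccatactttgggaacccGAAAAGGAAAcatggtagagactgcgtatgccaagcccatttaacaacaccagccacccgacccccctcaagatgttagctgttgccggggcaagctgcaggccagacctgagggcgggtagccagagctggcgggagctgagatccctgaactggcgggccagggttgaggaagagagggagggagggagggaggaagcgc
Neither stretch holds GGTCA and TGACC 3 bases apart, the palindromic oestrogen response element that ERα binds, its half-site AGGTCA or the FOXO site GTAAACA, searched on both strands. These letters occur in 21 (0.0639%), 4607 (14.0%) and 1040 (3.17%) of 32851 RefSeq promoters over the same 250 bases, of which Coch has the 192 that lie outside its annotated transcripts. A match or its absence describes these letters in this window alone.

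The other groups of the same mouse set place these levels. After oestradiol (E2) for 24 h, Hpgds stood at 7.27 ± 0.25 (SD, n = 3) in littermates and at 12.58 ± 0.08 (n = 2) in Ex3aERKO, against 12.70 ± 1.08 (n = 2) under vehicle. Coch stood at 12.34 ± 0.09 and Wls at 12.96 ± 0.08 in Ex3aERKO after E2 at 24 h (n = 2), with vehicle means of 12.62 and 13.21. At 2 h after E2, Hpgds was 9.81 ± 0.39 in Ex3aERKO and 10.34 ± 0.24 in littermates. At 2 h after IGF1, Ex3aERKO had Hpgds at 8.97 ± 0.23, Coch at 10.54 ± 0.79 and Wls at 11.39 ± 0.16 (n = 2). At that time after E2, Coch was 13.03 ± 0.33 and Wls 12.28 ± 0.25 in Ex3aERKO (n = 2). Gm15765, at 6.60 under vehicle, was 5.80 ± 0.39 at 24 h and 5.86 ± 0.01 at 2 h after E2 and 5.02 ± 0.12 at 2 h after IGF1 (n = 2). These groups are given as levels with no test.

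No further gene passed the threshold, and the next in order of p were as follows. Among lower interactions these were Lypd1, a GPI-anchored modulator of nicotinic receptors (-0.89 ± 0.16, limma adjusted p = 0.0909), Timp3, an inhibitor of metalloproteinases (-1.15 ± 0.22, 0.0998), the deubiquitinase Usp11 (-0.92, 0.115), the glycosyltransferase Mgat5 (-1.38, 0.115) and the ubiquitin ligase Birc2 (-0.81, 0.115). In Usp11, Mgat5 and Birc2 the vehicle level was higher in Ex3aERKO by 0.85, 1.83 and 1.01, all called, and after IGF1 the genotype difference was -0.07, 0.46 and 0.21, none called. Like Wls, these started higher in Ex3aERKO and fell there.

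Among higher interactions the nearest were Cxcl16, Thbs1, Sfrp2, Cxcl9 and the zinc finger gene Zfp9 (0.98, limma adjusted p = 0.113). Thbs1 encodes thrombospondin 1, a matrix protein that inhibits angiogenesis. It was 10.95 and 11.20 in littermates with vehicle and 9.23, 9.34 and 9.23 after IGF1, against 8.33 and 9.18 in Ex3aERKO with vehicle and 8.65, 8.59 and 9.15 after IGF1. Only the littermate vehicle arrays were high. Thbs1 fell by 1.81 ± 0.24 in littermates (adjusted p = 0.000732), while its change in Ex3aERKO was 0.04 ± 0.24 (adjusted p = 0.948), and the interaction was 1.85 ± 0.35 (adjusted p = 0.0998). Cxcl16, a membrane-bound chemokine, took the same course. It was 8.75 and 8.79, then 8.06, 8.02 and 7.58 after IGF1 in littermates, and 7.34 and 7.57, then 7.78, 7.88 and 7.76 in Ex3aERKO (interaction 1.23 ± 0.21, limma adjusted p = 0.0909).

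Sfrp2, a secreted WNT antagonist, was 10.76 and 10.80 in littermates with vehicle and 10.24, 10.37 and 10.27 after IGF1, and in Ex3aERKO 9.43 and 10.02 with vehicle and 10.88, 10.53 and 10.89 after IGF1. Its littermate change was -0.49 ± 0.20 (limma adjusted p = 0.199), it rose by 1.04 ± 0.20 in Ex3aERKO (adjusted p = 0.00129), and its interaction was 1.53 ± 0.28 (adjusted p = 0.0998). Without Ex3aERKO IGF1 replicate 2 the interaction of Sfrp2 was 1.64 (limma adjusted p = 0.0496) and that of Timp3 was -1.26 (0.0373), both past the threshold.

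**Figure D2:**
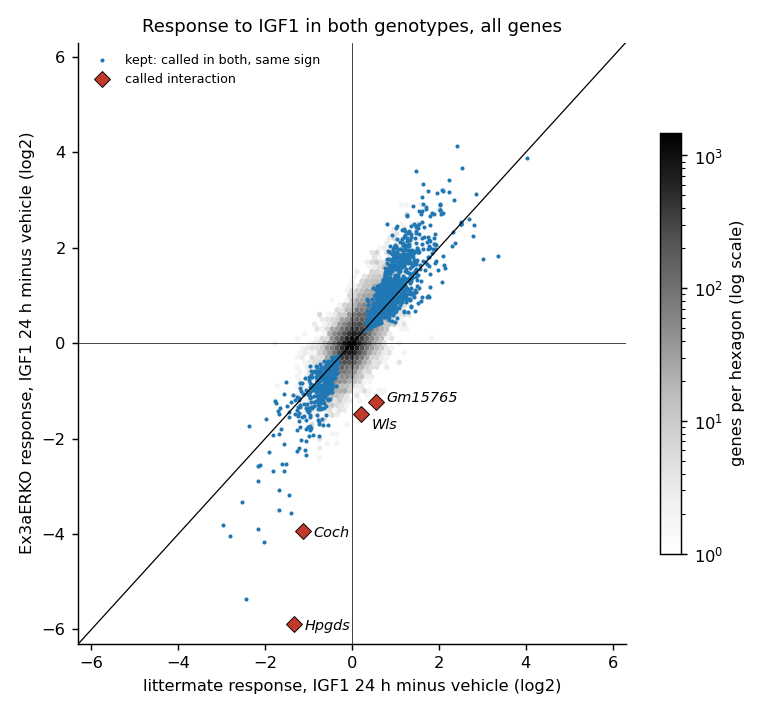
The response to IGF1 at 24 h in Ex3aERKO (y axis, log2) against that in littermates (x axis, log2) for 30142 genes, shaded by the number of genes per hexagon, with the 1290 kept genes as blue points, the 4 called interactions as red diamonds and a line of equal response. The called genes lie below that line.

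Most of what IGF1 changed in littermates, it changed in the same direction in Ex3aERKO. In littermates 1618 genes were called (5.37%), of which 1059 rose and 559 fell, and in Ex3aERKO 5598 (18.6%), of which 3530 rose and 2068 fell. The split depends on scaling: among littermate calls 65.5% rose on the deposited values, 48.2% after quantile normalization and 79.9% after centring each array, and among Ex3aERKO calls 63.1%, 48.8% and 75.6%. Of the 1618, 1581 (97.7%) had the same sign in Ex3aERKO, against 69.0% of all genes, and 1292 (4.29% of all genes) were also called there. These are 79.9% of the littermate calls and 23.1% of the Ex3aERKO calls. Of the 4305 genes called in Ex3aERKO alone, 3989 had the same sign in littermates, so a call in 1 genotype alone does not show a difference. Without either littermate vehicle array 160 genes were called in littermates, and without Ex3aERKO vehicle replicate 2, 2376 in Ex3aERKO. Across all genes both responses, which share no array, correlated with a Pearson r of 0.72 and a Spearman rho of 0.59, where genes are not independent replicates.

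A kept response is one called in both genotypes with the same sign and without a called interaction. There were 1290 of these genes (4.28%), 882 rises (2.93%) and 408 falls (1.35%). With 1 array left out there were 135 to 1712, and with only the 10 arrays in the fit 495. For 830 of them (64.3%, or 2.75% of all genes) the 95% interval of the interaction also lay within 2-fold either way, as it did for 78.1% of all genes. The interval reached 0.49 to each side in the median gene, a factor of 1.41, which is the precision that 2 and 3 arrays allowed.

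Among the rises kept in both genotypes, Igfbp5 led. It encodes an IGF binding protein that sits in the matrix. Its level was 11.19 and 11.11 in littermates with vehicle and 15.59, 14.79 and 15.19 after IGF1, against 9.76 and 11.41 in Ex3aERKO with vehicle and 14.22, 14.90 and 14.30 after IGF1. No array with IGF1 overlapped an array with vehicle. It rose by 4.04 in littermates and 3.89 in Ex3aERKO, with a 95% interval of the interaction from -1.54 to 1.24, so a difference of 2-fold is within that interval. Crabp1, a cytosolic retinoic acid binding protein, rose by 2.70 and 2.60 (interval -1.20 to 1.02), and Lgals1, the lectin galectin 1, by 2.53 and 3.67 (interval -0.03 to 2.33). Slc25a5, the ADP/ATP carrier of mitochondria, rose by 2.08 and 3.22, and Kpna2, a nuclear import receptor, by 2.09 and 2.73. Mki67, Top2a and Ube2c complete the largest 8 and belong with the mitotic genes below.

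Among the kept falls, Lepr, the leptin receptor, was 12.48 and 12.47 in littermates with vehicle, 9.45, 10.04 and 9.03 after IGF1, 13.05 and 13.26 in Ex3aERKO with vehicle and 9.18, 9.58 and 9.26 after IGF1. The genotypes overlapped after IGF1 and did not under vehicle. Lepr fell by 2.97 and 3.81 (interval of the interaction -1.62 to -0.07). Galnt15, which starts O-linked glycans, fell by 2.80 and 4.05 (interval -1.99 to -0.51), and Inmt, a methyltransferase of indoleamines, by 2.45 and 5.36 (interval -5.00 to -0.83). For Galnt15, Inmt, Lepr and the dystrophin gene Dmd the interval lay below 0 without a called interaction, on the side of a larger fall in Ex3aERKO. Pamr1 fell by 2.53 and 3.32, Dmd by 1.82 and 2.68, the linker histone gene H1f2 by 1.92 and 2.28, Neto2 by 2.38 and 1.73 and the cytokine gene Tnfsf18 by 1.68 and 1.90.

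Genes chosen on other mice mostly moved in the same direction in both genotypes. In the C57 wild-type arrays, which share no array with this mouse set, 678 genes were called at 2-fold or more upward after IGF1 at 24 h and 421 downward. Of the rises, 671 had the same sign in littermates and 663 in Ex3aERKO, with medians of 0.96 and 1.12. Of the falls, 355 and 335 had the same sign, with medians of -0.49 and -0.71. The interaction was called for 0 of the rises and 2 of the falls, Hpgds and Coch. Averaged over all 1099 genes with falls turned in sign, the shift from the vehicle mean was 0.99, 0.58 and 0.92 on the littermate IGF1 arrays and 0.96, 1.19 and 1.05 on the Ex3aERKO IGF1 arrays. The array at 0.58 is replicate 2.

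Some genes of IGF signalling itself responded in each genotype. Of 24 measured IGF ligands, receptors, binding proteins and adaptors, 2 rose and 2 fell in littermates and 4 rose and 8 fell in Ex3aERKO, of which 3 rose and 5 fell without Ex3aERKO vehicle replicate 3. Of all genes 3.51% rose and 1.85% fell in littermates, and 11.7% rose and 6.86% fell in Ex3aERKO. Igfbp5, Igfbp4, Igf1r and Pappa, the protease that cleaves IGF binding proteins, moved the same way in both. Igf1r was 11.88 and 11.79 in littermates with vehicle, 10.46, 11.23 and 10.63 after IGF1, 12.55 and 12.21 in Ex3aERKO with vehicle and 10.47, 10.51 and 10.75 after IGF1. Arrays with IGF1 lay below those with vehicle in both genotypes. The receptor fell by 1.06 ± 0.19 in littermates (limma adjusted p = 0.00387) and by 1.80 ± 0.19 in Ex3aERKO (adjusted p = 6.82e-06).

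Igfbp4, a binding protein that inhibits IGF action, was 11.56 and 11.70 in littermates with vehicle and 12.64, 12.27 and 13.03 after IGF1, and in Ex3aERKO 10.78 and 11.31, then 13.41, 13.39 and 13.57. The Ex3aERKO arrays were the lowest with vehicle and the highest with IGF1. Its interaction was 1.39 ± 0.32 (limma adjusted p = 0.184). At the other end stood Stc1, stanniocalcin 1, which blocks Pappa (interaction -1.65 ± 0.58, adjusted p = 0.435), with a vehicle level 2.97 higher in Ex3aERKO. The ligand Igf1 had an interaction of 0.67 ± 0.38 (adjusted p = 0.7), and under vehicle it was 1.13 lower on the log2 scale in Ex3aERKO (-1.13, adjusted p = 0.0395). Over the whole list 4 members had a lower and 2 a higher interaction at an unadjusted p under 0.05, against 3.55% and 4.38% of all genes, and the list median of the interaction was -0.02.

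Of the FOXO factors and their target genes, 12 fell in Ex3aERKO. These genes, many of them brakes on growth or parts of protein breakdown, lie downstream of AKT. Of 25 measured FOXO factors and targets, 1 fell in littermates (Foxo1), where 1.85% of all genes fell, and 12 fell in Ex3aERKO, where 6.86% did, and 0 rose in either. After centring each array, 0 fell in littermates, and 10 fell and 1 rose in Ex3aERKO, where 1420 and 4410 of 30142 genes did. After quantile normalization 2 fell in littermates and 16 in Ex3aERKO, against 868 and 2912 of 30142 genes. The interaction was below 0 for 20 of the 25, against 47.7% of all genes. It was lower at an unadjusted p under 0.05 for 7, against 3.55% of all genes. The list medians were -0.24 in littermates, -0.51 in Ex3aERKO and -0.43 in the interaction.

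Txnip, which binds thioredoxin and limits glucose uptake, was 16.29 and 16.54 in littermates with vehicle, 15.78, 16.67 and 15.70 after IGF1, 16.85 and 16.70 in Ex3aERKO with vehicle and 14.67, 14.56 and 14.78 after IGF1. The 3 Ex3aERKO IGF1 arrays were below all others, and littermate replicate 2 was above both littermate vehicle arrays. Txnip fell by 2.11 ± 0.38 in Ex3aERKO (limma adjusted p = 0.000688), changed by -0.37 ± 0.38 in littermates, and its interaction was -1.74 ± 0.53 (adjusted p = 0.35). Irs2, an insulin receptor substrate, was 10.24 and 11.04, then 10.27, 10.04 and 9.76 in littermates, and 9.89 and 10.71, then 7.91, 7.70 and 8.99 in Ex3aERKO, again with all 3 Ex3aERKO IGF1 arrays lowest (interaction -1.48 ± 0.56, limma adjusted p = 0.496). Klhl24 fell by 2.23 in Ex3aERKO against -0.85 in littermates (adjusted p = 0.0571 there), the muscle ubiquitin ligase gene Fbxo32 by 2.31 against -1.23 (0.184) and Sesn1 by 0.97 against -0.15. On the positive side, Ccnd2 (0.30) and Sesn3 (0.25) had the largest interactions.

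Part of this pattern moved with 1 littermate array. Without littermate IGF1 replicate 2, 5 FOXO genes fell in littermates (Foxo3, Klhl24, Ccng2, Pik3ip1 and Gabarapl1) and 14 in Ex3aERKO. Of 30142 genes 652 and 2042 fell in that fit. The interaction was then below 0 for 18 with a median of -0.38. The genotype difference after IGF1 was called lower for 11 of the 25 on all arrays, where 3.71% of all genes were lower. Without that array it was called lower for 5, against 593 of 30142 genes. In the ERaUtcKO mice described below, 15 of the 25 fell in littermates, where 26.7% of all genes fell, and 18 in the knockout, where 15.5% did, with an interaction median of 0.01.

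**Figure D3:**
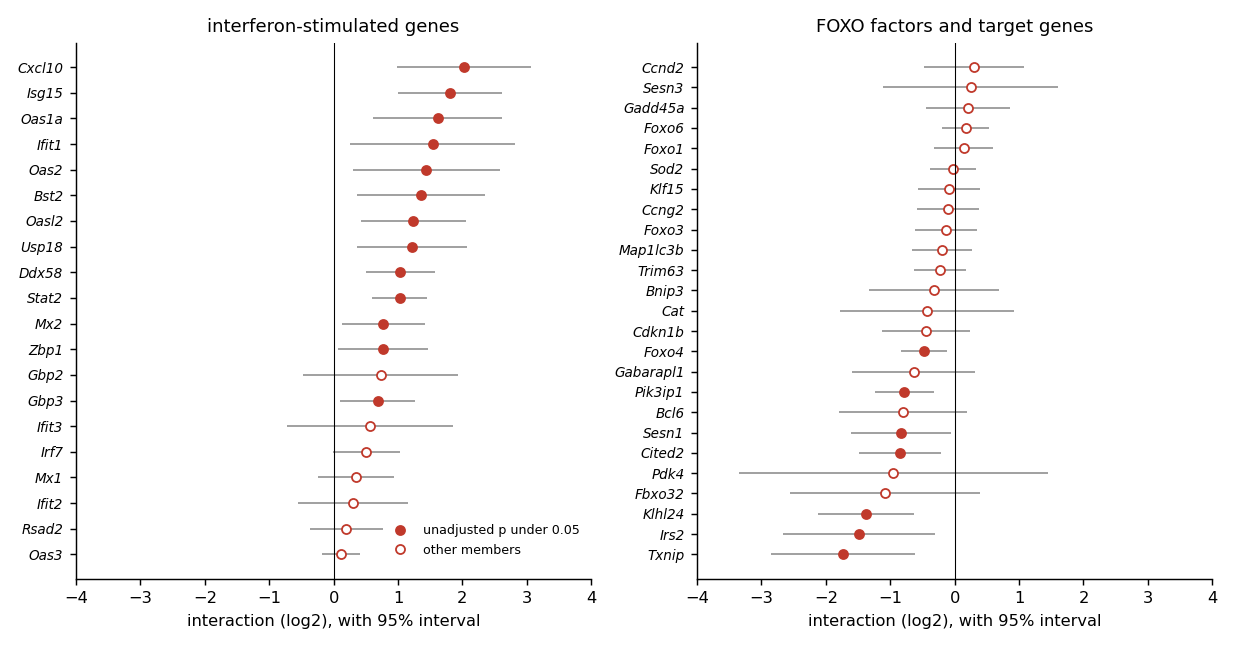
Interaction (x axis, log2) with its 95% interval for each of the 20 interferon-stimulated genes and the 25 FOXO factors and targets (y axis, ordered by value); filled points have an unadjusted p under 0.05. All 20 interferon points lie above 0, and 20 of the 25 FOXO points lie below 0.

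Interferon-stimulated genes leaned the other way. They are switched on by interferons through STAT factors and encode antiviral proteins and chemokines. Of 20 measured members, 0 rose or fell in littermates, and 7 rose in Ex3aERKO, where 11.7% of all genes rose: Isg15, Cxcl10, Bst2, Oas1a, Ddx58, Stat2 and Oasl2. The interaction was above 0 for all 20, against 52.3% of all genes, and higher at an unadjusted p under 0.05 for 13, against 4.38% of all genes. None was called. The list medians were -0.34 in littermates, 0.57 in Ex3aERKO and 0.90 in the interaction. Under vehicle the median genotype difference was -0.52, and after IGF1 it was 0.38. After IGF1, 5 members were called higher in Ex3aERKO (Isg15, Cxcl10, Ifit1, Ddx58 and Stat2), against 3.53% of all genes.

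Isg15, a ubiquitin-like protein, was 9.37 and 9.69 in littermates with vehicle, 9.27, 9.32 and 9.10 after IGF1, 8.86 and 8.88 in Ex3aERKO with vehicle and 9.90, 10.77 and 10.45 after IGF1. The Ex3aERKO IGF1 arrays were above all others and the Ex3aERKO vehicle arrays below all others. Isg15 rose by 1.50 in Ex3aERKO (limma adjusted p = 0.000778), and its interaction was 1.81 ± 0.39 (adjusted p = 0.145). Cxcl10, a chemokine that draws T cells, was 5.89 and 5.98, then 5.44, 5.53 and 5.21 in littermates, and 5.32 and 5.47, then 5.97, 8.09 and 6.56 in Ex3aERKO. Its high value came from replicate 2. The interaction was 2.02 ± 0.50 (limma adjusted p = 0.209) and, without that array, 1.41 (adjusted p = 0.0261). The smallest interactions of the list were those of Oas3 (0.12) and Rsad2 (0.20).

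Since the listed genes are known for the interferon-stimulated response element, the promoters of Isg15 and Cxcl10, the highest interactions of the list, are shown (RefSeq, GRCm38.p6, the 250 bases before the start site, 5′ to 3′ on the gene's strand, matches to the same interferon element on either strand in capitals).
Isg15, chr4:156200819-156201068, minus strand: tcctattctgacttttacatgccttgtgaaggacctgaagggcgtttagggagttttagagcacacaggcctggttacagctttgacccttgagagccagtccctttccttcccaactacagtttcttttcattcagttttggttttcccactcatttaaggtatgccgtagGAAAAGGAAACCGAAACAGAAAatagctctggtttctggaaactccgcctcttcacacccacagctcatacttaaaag
Cxcl10, chr5:92348890-92349139, minus strand: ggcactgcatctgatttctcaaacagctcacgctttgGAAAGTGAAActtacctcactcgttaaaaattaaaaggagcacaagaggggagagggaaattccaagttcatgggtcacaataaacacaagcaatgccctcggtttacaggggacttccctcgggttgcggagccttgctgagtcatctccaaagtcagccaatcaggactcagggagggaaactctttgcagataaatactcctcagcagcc
The Isg15 stretch holds 3 overlapping matches and that of Cxcl10 holds 1. Of the 15 list members with a RefSeq promoter, 11 hold the letters (73.3%), against 978 of 32851 promoters (2.98%) and 0 of 20 promoters of the FOXO list. The FOXO site GTAAACA occurs in 2 of those 20. The Wls stretch above holds 1 match as well. A match is no shown binding site.

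The size of the interferon pattern moved with Ex3aERKO IGF1 replicate 2, the array with the high summed level of neutrophil markers. Without it, 5 members rose in Ex3aERKO and 2 fell (Ifit2 and Rsad2), against 2885 and 1661 of 30142 genes. In littermates 1 fell, where 552 of 30142 genes did. The interaction was then above 0 for 17 of 20, with a median of 0.77 and 1 call (Cxcl10). It was higher at an unadjusted p under 0.05 for 9, against 1273 of 30142 genes. The summed level of the 20 genes was 12.79, 13.55 and 13.12 on the Ex3aERKO IGF1 arrays, against 12.57 to 13.03 on the littermate IGF1 arrays and 11.99 and 12.21 on the Ex3aERKO vehicle arrays. Summed T and NK cell markers lay between 9.42 and 9.94 on all 10 arrays. Summed macrophage markers were 16.26 and 16.41 in littermates with vehicle, 13.90 and 14.93 in Ex3aERKO with vehicle and 14.93, 14.38 and 15.38 in Ex3aERKO after IGF1, and 0 of the 14 had an interaction at an unadjusted p under 0.05. The part of these cells in the interferon values was not tested.

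Chemokine genes leaned the same way. Of 30 measured chemokines, cytokines and calgranulins, 2 fell in littermates (Cxcl14 and Cxcl16, and 1 gene without littermate IGF1 replicate 2) and 7 rose in Ex3aERKO (Cxcl9, Ccl12, Ccl7, Ccl2, Ccl6, Il1b and S100a8), where 11.7% of all genes rose. Cxcl9, an interferon-induced chemokine, was 9.03 and 8.41 in littermates with vehicle, 8.16, 8.12 and 6.36 after IGF1, 5.73 and 6.18 in Ex3aERKO with vehicle and 7.90, 9.65 and 8.77 after IGF1. The Ex3aERKO vehicle arrays were the lowest, and the genotypes overlapped after IGF1. It rose by 2.82 in Ex3aERKO, and its interaction of 3.99 ± 0.74 (limma adjusted p = 0.0998) was 3.55 without Ex3aERKO IGF1 replicate 2. S100a8, a calgranulin of neutrophils and epithelium, was 10.313, 15.003 and 10.824 on the Ex3aERKO IGF1 arrays and rose by 5.98, which became 4.50 with an adjusted p of 0.0692 without replicate 2. The lowest interactions were those of Il33 (-1.04) and Ccl8 (-0.84). An interaction higher at an unadjusted p under 0.05 was measured for 7 members, against 4.38% of all genes, and a lower one for 0. The list median was 0.31 and, without Ex3aERKO IGF1 replicate 2, 0.16.

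Cell cycle genes rose in both genotypes. Of 26 measured genes of mitosis and cytokinesis, 19 rose in littermates (3.51% of all genes rose there) and 13 in Ex3aERKO (11.7% of all genes), 12 of them in both. None had an interaction at an unadjusted p under 0.05, yet 25 of 26 interactions were below 0, with a list median of -0.37. The medians of the responses were 1.33 in littermates and 0.90 in Ex3aERKO. Mki67, the proliferation marker Ki-67, was 7.87 and 7.55 in littermates with vehicle, 10.39, 10.65 and 10.51 after IGF1, 6.37 and 6.90 in Ex3aERKO with vehicle and 8.25, 10.69 and 8.38 after IGF1. Replicate 2 alone of the Ex3aERKO IGF1 arrays reached the littermate level. It rose by 2.81 in littermates and 2.47 in Ex3aERKO, with an interval of the interaction from -2.25 to 1.57.

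That array decided the count in Ex3aERKO. Without it 3 of the 26 rose (Mki67, Aurka and Tpx2) and 1 fell (Bub1b), the Ex3aERKO median was 0.50, the interaction median was -0.86, and 10 interactions were lower at an unadjusted p under 0.05. The genotype difference after IGF1 was then called lower for 20 of 26, against 3 with it (Ect2, Bub1b and Ttk) and 0 without littermate IGF1 replicate 2. Top2a rose by 2.25 in Ex3aERKO with the array, and without it changed by 1.61 (limma adjusted p = 0.0716). For Ube2c these values were 2.11 and 1.35 (0.0787), and for Ccnb2 1.64 and 0.82 (0.0638). Without Ex3aERKO vehicle replicate 3, 5 of the 26 rose in Ex3aERKO, and with only the 10 arrays in the fit 7 rose in littermates and 8 in Ex3aERKO. The largest interactions of the list were Aurka (0.16) and Cdc20 (-0.06) at the top and Ect2 (-0.90) and Kif11 (-0.77) at the bottom.

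**Figure D4:**
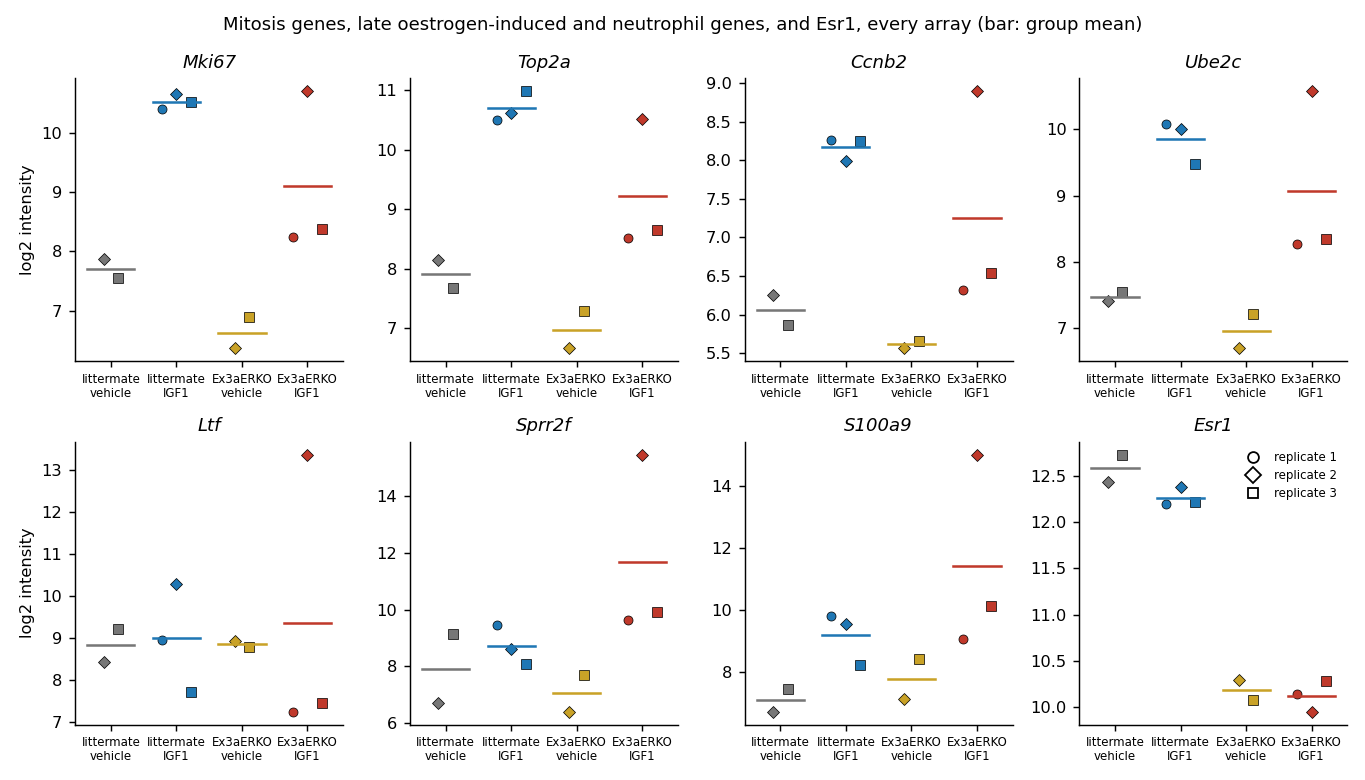
Deposited log2 intensity (y axis) in the 4 groups (x axis) for Mki67, Top2a, Ccnb2, Ube2c, Ltf, Sprr2f, S100a9 and Esr1; points are arrays, diamonds are replicate 2 and bars are group means. Mki67 was 10.69 on it and 8.25 and 8.38 on its partners, and Ltf was 13.38 against 7.24 and 7.45.

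DNA replication genes also rose in both. Of 27 measured members 17 rose in littermates and 13 in Ex3aERKO, 12 in both, against 3.51%, 11.7% and 2.93% of all genes. In littermates 1 fell (Orc1), where 1.85% of all genes did. Mcm3, a subunit of the replicative helicase, was 6.90 and 6.88, then 8.50, 7.56 and 8.93 in littermates, and 6.91 and 6.97, then 7.82, 8.18 and 8.16 in Ex3aERKO. Every IGF1 array was above every vehicle array. Without Ex3aERKO IGF1 replicate 2, 7 members rose in Ex3aERKO and 6 in both, and the interaction median went from -0.21 to -0.24. Without Ex3aERKO vehicle replicate 3, 8 rose in Ex3aERKO. Cdc6, which loads the helicase, had the only interaction of the list at an unadjusted p under 0.05 (-0.51; 8 without littermate IGF1 replicate 2, all lower), and Rfc4 (0.36), Mcm5 (0.26) and Rrm2 (-0.61) were the other extremes.

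Some genes of lipid synthesis and protein folding rose in both genotypes. Of 19 measured genes of cholesterol and fatty acid synthesis, 6 rose in littermates and 9 in Ex3aERKO, 5 in both, against 3.51%, 11.7% and 2.93% of all genes, and the interaction median was 0.03. Its sign is not settled: it was -0.01 after quantile normalization, -0.11 without littermate IGF1 replicate 2 and 0.21 without Ex3aERKO IGF1 replicate 2. Idi1, an isomerase of the mevalonate pathway, was 6.27 and 6.17, then 9.02, 7.47 and 7.996 in littermates, and 6.47 and 6.52, then 8.33, 7.58 and 8.73 in Ex3aERKO. It rose by 1.94 and 1.72 with overlapping arrays after IGF1. Nsdhl (-0.82) and the regulator gene Srebf2 (-0.56) had the lowest interactions and Fasn (0.36) and Dhcr7 (0.32) the highest.

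Of 19 measured genes of protein folding in the endoplasmic reticulum, 7 rose in littermates and 13 in Ex3aERKO, among them all 7. Of all genes 3.51% and 11.7% rose. The interaction was higher at an unadjusted p under 0.05 for 4, against 4.38% of all genes. Without littermate IGF1 replicate 2, 11 rose in littermates. After quantile normalization 3 rose in littermates, and 10 rose and 2 fell in Ex3aERKO. The chaperone genes Creld2 (0.96) and Dnajb11 (0.84) had the highest interactions and Herpud1 (-0.59) and Hsp90b1 (-0.15) the lowest. Dnajb11 was 9.80 and 9.68, then 10.83, 10.27 and 11.03 in littermates, and 9.59 and 9.88, then 11.34, 11.91 and 11.37 in Ex3aERKO, whose IGF1 arrays were above all others.

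A group of matrix genes rose in both genotypes. Of 29 measured collagens and matrix genes, 12 rose and 2 fell in littermates, 14 rose and 4 fell in Ex3aERKO, and 11 rose in both (7 after quantile normalization). Of all genes 3.51% rose and 1.85% fell in littermates, 11.7% rose and 6.86% fell in Ex3aERKO, and 2.93% rose in both. Between genotypes, 2 members were called higher and 6 lower in Ex3aERKO under vehicle, against 1.56% and 1.4% of all genes. After IGF1 0 were higher and 7 lower, against 3.53% and 3.71%. The summed level was 19.11 and 19.17, then 18.10, 17.52 and 18.28 in Ex3aERKO, and 19.07 and 19.05, then 19.08, 18.96 and 18.73 in littermates. Col1a1, a chain of type I collagen, was 8.78 and 8.96, then 10.98, 10.66 and 11.40 in littermates, and 8.62 and 8.68, then 10.002, 10.31 and 10.38 in Ex3aERKO. It rose by 2.14 and 1.58, and the littermate IGF1 arrays were above the Ex3aERKO IGF1 arrays. Besides Thbs1, Tnc (1.04) had the highest interaction, and Tgfbi (-1.55) and Dcn (-1.40) the lowest. Dcn, the proteoglycan decorin of stromal cells, was 17.78, 17.77 and 17.43 in littermates after IGF1 and 15.66, 15.33 and 15.83 in Ex3aERKO after IGF1, with no overlap between genotypes, and 18.61 and 18.59 against 17.70 and 18.19 under vehicle. Its interaction was -1.40 ± 0.40 (limma adjusted p = 0.293).

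Among the genes of prostaglandin synthesis and action, 17 were measured and Hpgds alone had a called interaction. Ptgdr, the receptor for prostaglandin D2, also started higher in Ex3aERKO. It was 5.20 and 5.80 in littermates with vehicle, 6.24, 6.42 and 5.48 after IGF1, 7.92 and 8.18 in Ex3aERKO with vehicle and 6.33, 7.51 and 7.13 after IGF1. The genotypes did not overlap under vehicle and overlapped after IGF1. Its interaction was -1.60 ± 0.48 (limma adjusted p = 0.336). Ptges (0.53) and Pla2g4a (0.26) had the highest interactions of the group. Of 29 measured WNT ligands, R-spondins and antagonists, 1 rose and 1 fell in littermates and 1 rose and 4 fell in Ex3aERKO, or 5 and 4 without Ex3aERKO IGF1 replicate 2, where 11.7% of all genes rose and 6.86% fell on all arrays. Apart from Sfrp2 and Sfrp4 (0.84) at the top, the extremes were Wnt2b (-0.60) and Rspo3 (-0.56).

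Few early oestrogen-induced genes were called after IGF1 at 24 h, and 0 rose. Of 22 measured ERα and early oestrogen-induced genes, 0 rose and 1 fell in littermates (Sox4, by 1.39), and 0 rose and 2 fell in Ex3aERKO (Adm, by 1.36, and Ccn1, by 1.25). The shares of all genes that rose and fell were 3.51% and 1.85% in littermates and 11.7% and 6.86% in Ex3aERKO. Greb1, an ERα target, had an interaction of 0.12, Pgr, the progesterone receptor, of 0.40, and Sox4 of 1.21. Under vehicle 5 of the 22 were lower in Ex3aERKO, where 1.4% of all genes were, namely Esr1, Greb1, Igf1, Sox4 and Cxcl12. Of 20 late oestrogen-induced secretory and epithelial genes, 1 rose in littermates (Gpx2) and 5 rose in Ex3aERKO (Sprr2f, Muc1, Lcn2, Sprr2g and Car2), against 11.7% of all genes, while 1 fell there (Gpx3). Without Ex3aERKO IGF1 replicate 2, 2 rose there, where 2885 of 30142 genes did. Sprr2f (3.81) and Sprr2b (2.56) had the highest interactions and Prap1 (-2.78) and Gpx3 (-0.81) the lowest. Muc1, a mucin of the luminal surface, was 8.78 and 8.58, then 9.19, 9.23 and 9.17 in littermates, and 9.10 and 9.28, then 10.58, 11.70 and 10.95 in Ex3aERKO, so its Ex3aERKO IGF1 arrays were above all others. Muc1 was chosen after its values were seen. It rose by 1.89 in Ex3aERKO, and by 1.58 without that array (limma adjusted p = 0.00419).

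Progesterone pathway and stromal regulators had 21 measured members, of which 2 rose in littermates (Lrp2 and Fkbp4) and 9 rose and 2 fell in Ex3aERKO, against 3.51% of all genes that rose in littermates and 11.7% and 6.86% that rose and fell in Ex3aERKO. Without Ex3aERKO vehicle replicate 3, 6 rose and 0 fell there. Lrp2 (interaction 1.16) and the homeobox gene Hoxa11 (1.10), which specifies the uterus, led, and Tdo2 (-0.26) and Fkbp4 (-0.16) were lowest. Hoxa11 was 9.92 and 10.53, then 10.82, 10.09 and 10.47 in littermates, and 9.64 and 9.68, then 10.67, 10.99 and 11.31 in Ex3aERKO, with overlap between genotypes after IGF1. It rose by 1.33 in Ex3aERKO (limma adjusted p = 0.00286).

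Of 16 measured circadian clock genes, 0 were called in littermates, where 5.37% of all genes were, and 7 fell in Ex3aERKO, where 6.86% did. The interaction was lower at an unadjusted p under 0.05 for 5 of them (Nr1d1, Hlf, Nr1d2, Per3 and Tef) and higher for 1 (Nfil3), with a list median of -0.14. Nr1d1, the repressor REV-ERBα, was 12.88 and 12.49, then 12.39, 13.05 and 12.79 in littermates, and 12.87 and 13.00, then 11.47, 12.23 and 11.75 in Ex3aERKO. The 3 Ex3aERKO IGF1 arrays were the lowest of the 10, and the interaction was -1.18 ± 0.40 (limma adjusted p = 0.423). The hour of the day at which tissue was taken is not in the labels.

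Among cell type markers, some of those of the epithelium differed in level. Of 19 epithelial markers, 8 were called higher in Ex3aERKO under vehicle (4 without Ex3aERKO vehicle replicate 3), against 1.56% of all genes, and 8 after IGF1, against 3.53%, and 0 had an interaction at an unadjusted p under 0.05. Of 13 stromal fibroblast markers 1 rose in littermates and 6 rose and 1 fell in Ex3aERKO, against 3.51%, 11.7% and 6.86% of all genes, and 3 had an interaction at an unadjusted p under 0.05, 2 of them higher. Their interaction median was 0.35, and 0.67 without Ex3aERKO vehicle replicate 3. After IGF1, 2 were called higher and 4 lower in Ex3aERKO than in littermates, against 3.53% and 3.71% of all genes. Their summed level, led by abundant members, went the other way in Ex3aERKO, from 17.84 and 18.43 to 16.82, 16.60 and 16.96. In littermates it was 19.06 and 19.04, then 19.01, 18.88 and 18.64. Of 14 smooth muscle markers 13 had an interaction below 0, with a median of -0.24, and 5 were called lower in Ex3aERKO after IGF1 (Myl9, Myh11, Synpo2, Smtn and Mylk). Without Ex3aERKO vehicle replicate 3, 6 were below 0 and the median was 0.04. Without Ex3aERKO IGF1 replicate 2 the median was -0.63 and 10 were called lower after IGF1, and without littermate IGF1 replicate 2, 1 was. Actg2, smooth muscle actin, rose by 2.30 in littermates and 2.03 in Ex3aERKO. Of 9 mesothelial markers 3 had a lower interaction at an unadjusted p under 0.05 (Upk3b, Upk1b and Msln), with a list median of -0.90, which was -0.15 without that same vehicle array. Upk3b was 8.16 and 10.46 on the 2 Ex3aERKO vehicle arrays, the second of them replicate 3.

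More genes were called between the genotypes at each treatment than in the interaction. Under vehicle 891 genes were called (2.96%), 470 higher (1.56%) and 421 lower (1.4%) in Ex3aERKO, and after IGF1 2181 (7.24%), 1063 higher (3.53%) and 1118 lower (3.71%). Of the 891, 826 (92.7%) kept their sign after IGF1 and 500 were called with the same sign, which is 56.1% of the vehicle list and 22.9% of the list after IGF1. The 2 called with opposite sign were Hpgds and Gm15765. The 2 lists share no array, and the interaction is their difference. Without Ex3aERKO vehicle replicate 2 the vehicle list held 165 genes.

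The same interaction was measured in a second knockout. ERaUtcKO mice (Esr1f/f;PgrCre+) lose a floxed Esr1 through Cre driven by the progesterone receptor promoter, and thus in the cells that express it, and their littermates were their controls (3 arrays in each of the 4 groups, 29 arrays in the fit). There the interaction was called for 15 genes (0.0498%), 4 higher (0.0133%) and 11 lower (0.0365%). All 4 genes called in Ex3aERKO had the same sign, and Hpgds was called. Hpgds was 10.34, 10.12 and 10.33 in those littermates with vehicle, 8.28, 8.10 and 8.46 after IGF1, 12.33, 11.87 and 12.82 in ERaUtcKO with vehicle and 7.95, 7.67 and 7.30 after IGF1. The knockout again moved from above to below its littermates, and the interaction was -2.71 ± 0.41 (limma adjusted p = 0.00851). The interaction of Coch there was -1.58 ± 0.38 (adjusted p = 0.122), that of Wls -0.79 ± 0.20 (0.143) and that of Gm15765 -0.57 ± 0.19 (0.281). As in Ex3aERKO, the vehicle level of Coch was higher in the knockout, at 12.81, 13.30 and 12.84 against 9.89, 9.30 and 9.60.

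The difference between both interactions was itself tested on the 54 arrays of both experiments. It was called for 0 genes in limma, with 1882 genes (6.24%) at an unadjusted p under 0.05. For Hpgds it was -1.84 ± 0.68 (unadjusted p = 0.01, limma adjusted p = 0.686), for Coch -1.22 ± 0.58 (unadjusted p = 0.0437 in limma) and for Wls -0.91 ± 0.29 (unadjusted p = 0.00377 in limma). All were toward a larger fall in Ex3aERKO, and none passed the adjustment.

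Gene groups differed between the lines in their counts. In ERaUtcKO the interferon list had an interaction median of -0.07, with 6 of 20 above 0. There 0 were higher at an unadjusted p under 0.05, where 7.68% of all genes were. In Ex3aERKO that median was 0.90, and 0.77 without IGF1 replicate 2. Of the 20, 7 rose in ERaUtcKO littermates (median 0.41) and 6 in ERaUtcKO (0.24), against 5069 and 5080 of 30142 genes. These medians were -0.34 and 0.57 in the Ex3aERKO experiment, so those of the littermates differed too. The difference between the lines was higher in Ex3aERKO at an unadjusted p under 0.05 for 11 of 20, against 689 of 30142 genes, and called for 0. For Isg15 that difference was 1.96 (limma unadjusted p = 0.000707), and for Cxcl9 4.58 (0.000199). The mitotic list had an interaction median of -1.08 in ERaUtcKO, with all 26 below 0 and 24 lower at an unadjusted p under 0.05, against 3.79% of all genes there. In Ex3aERKO that median was -0.37, and -0.86 with 10 lower without IGF1 replicate 2. The difference between the lines reached an unadjusted p under 0.05 for 0 of the 26. Cholesterol and fatty acid genes had a median of -0.78 in ERaUtcKO, with 19 of 19 below 0 and 4 called lower (Fdft1, Sqle, Lss and Nsdhl). For 8 of them the difference between the lines was higher in Ex3aERKO at an unadjusted p under 0.05, against 689 of 30142 genes. The clock list had a median of -0.14 in Ex3aERKO, with 6 of 16 above 0 (8 without IGF1 replicate 2), and of -0.40 in ERaUtcKO, with 5 above 0. In ERaUtcKO 6 were lower and 1 higher at an unadjusted p under 0.05, Nr1d1 among the lower at -1.11 ± 0.41.

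**Figure D5:**
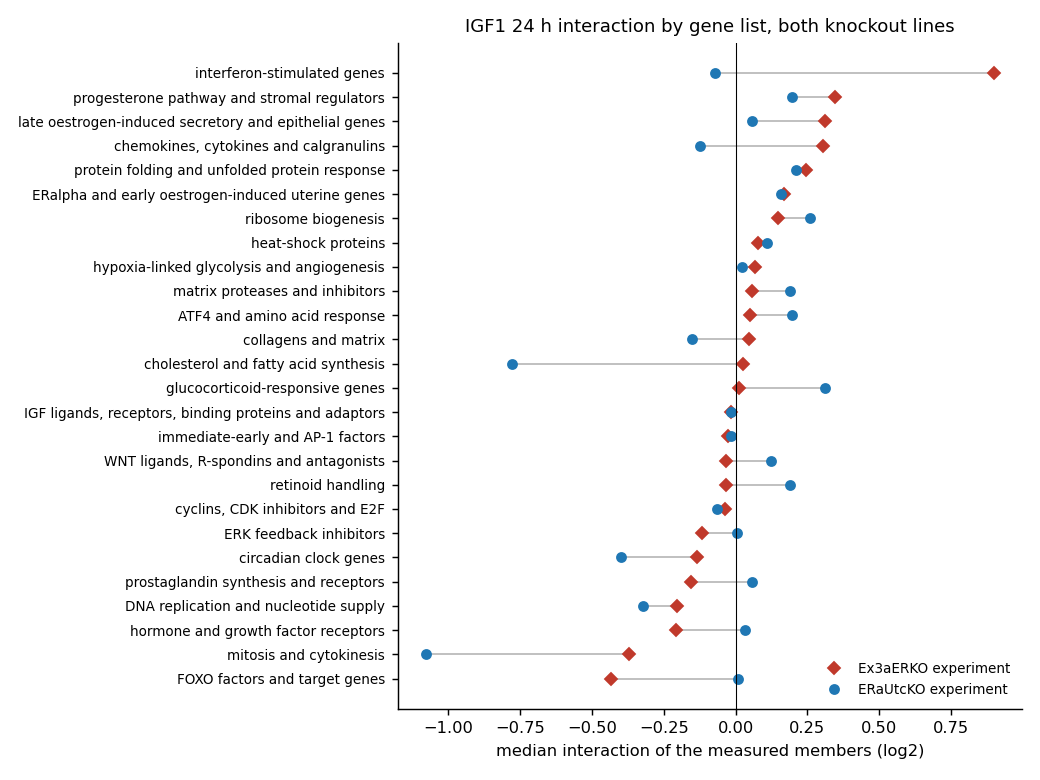
The median interaction (x axis, log2) of each pathway list (y axis) in Ex3aERKO and in ERaUtcKO, each against its own littermates, as red diamonds and blue circles joined by a line. The interferon list lies at 0.90 in Ex3aERKO (0.77 without Ex3aERKO IGF1 replicate 2) and -0.07 in ERaUtcKO. The mitotic list lies at -0.37 (-0.86 without that array) and -1.08. The cholesterol list lies at 0.03 (0.21 without that array) and -0.78.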

How the data were processed

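RNA of whole uterus was labelled with the Affymetrix WT Plus kit and hybridised to 68 arrays, per the labels' protocols. The deposited values are log2 intensities of 72688 probe sets made by the authors, and neither labels nor headers name their normalization. Of these probe sets 30604 carried 1 gene symbol in the platform annotation, and of several for a gene the one with the highest mean over all arrays was used, which left 30142 genes. The 25 arrays of the Ex3aERKO set were fitted with 1 mean per group in limma 3.58.1 (R 4.3.3), two-sided, with Benjamini-Hochberg adjustment over all genes, and the script was tested on simulated data. The 29 arrays of the ERaUtcKO set were fitted alike. Array medians differed between sets, so levels were compared only within a set, and the number of arrays limits the precision.

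The members and gene lists were chosen with earlier results of these data known. Named genes are all with a called interaction, then the 5 smallest p each way, the 8 largest kept rises and falls, a fixed set of genes, and the 2 highest and 2 lowest interactions of a list, passing over predicted genes except Gm15765. Other list members named beside a count, and Muc1, were named after their values were seen. Summed levels are log2 of the sum of linear intensities. Alternatives were quantile normalization, median centring, a filter on low values, limma's trend with robust fitting, the mean of probe sets, other sets of arrays or references, each array left out, and a replicate block. No 2 arrays held identical values.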

Additional observations from a re-analysis of the deposited data

Results flagged for a closer look

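The response to IGF1 at 24 h differed between Ex3aERKO mice and littermates by the limma test of the interaction in 4 genes. The difference (Ex3aERKO minus littermates, log2) was -4.56 for Hpgds, -2.80 for Coch, -1.70 for Wls and -1.77 for Gm15765. Single arrays far from their group were not tested, since the groups hold 2 or 3 arrays.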

How the results depend on the processing

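Quantile normalization, median centring, the filter on low values, trend with robust fitting and the mean of probe sets left all 4 interaction calls in place. With only the 10 arrays in the fit, the interaction was called for 1 gene, the littermate response for 612, the vehicle difference for 568, the difference after IGF1 for 1425, and 495 genes were kept. With all 68 arrays these counts were 211, 3244, 2033, 3934 and 2458. Against C57 or WT (ERaUtcKO) mice in place of the littermates, the interaction was called for 1164 and 2431 genes. The ERaUtcKO interaction was called for 6 genes after centring and 23 with the low-value filter. The cause was not tested. With each array left out in turn, counts ran from 2 to 17 for the interaction (17 without Ex3aERKO IGF1 replicate 2), 160 to 2105 for littermates, 2376 to 5646 for Ex3aERKO, 165 to 971 under vehicle, 1055 to 2261 after IGF1 and 135 to 1712 for kept genes. Deviations of same-numbered arrays from their group means correlated from -0.15 to 0.06. With groups of 2 or 3 arrays and no differently numbered pairs for comparison, this cannot settle whether the numbers pair samples. With a replicate block the interaction was called for 5 genes, the littermate response for 1235, the Ex3aERKO response for 5158, and 982 genes were kept. Over 53 named genes and 1059 interactions under alternatives, 14 were no longer called and 38 became called. No called interaction changed sign, while 39 values of 18 genes without a call did.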
